A study of Mus musculus with 4 samples.

Results

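The 8 genes described here carry cytokine signals through JAK kinases and STAT proteins or are classical targets of STAT3. They are the receptor chain gene Il10rb, the kinase gene Jak3, the transcription factor genes Stat3 and Stat5b, and the target genes Ccnd3, Myc, Mcl1 and Junb. They were chosen by a measured value, namely that a listed pSTAT3-Y705 peak of at least 1 library named them as its nearest gene, and they are 8 of the 958 genes so named. That each has a peak is therefore how the genes were selected and not a result, and the libraries in which each is named are given as a description with no test.

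DNA bound by phosphorylated STAT3 (pSTAT3-Y705) was immunoprecipitated and sequenced from bone marrow LSK cells, which are sorted as Lin-Sca1+cKit+ and include the stem and early progenitor cells of blood. CML-TKI cells came from mice of the chronic myeloid leukemia model given the BCR-ABL kinase inhibitor imatinib every other day, CML cells from such mice left untreated, and WT cells from untreated wild-type mice, all C57BL/6. The leukemic mice carried BCR-ABL and SCL-tTA transgenes, by which a stem and progenitor cell enhancer drives the oncogene. Each group was 1 library, the number of mice pooled is not given in the sources used here, and the labels give the imatinib course both as 200 mg/kg over 4 weeks and as 400 mg/kg over 30 days.

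In this pathway a cytokine joins its receptor chains, the JAK kinases bound to those chains phosphorylate them and the STAT proteins that dock there, and paired STATs enter the nucleus and bind DNA. STAT3 acts in this way downstream of interleukin-6 and interleukin-10 family receptors, and STAT5 downstream of many hematopoietic cytokines and of BCR-ABL. STAT3 is known to activate its own gene, together with genes of the cell cycle, of survival and of the AP-1 transcription factors.

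The peak list gave positions, region classes and distances but no read counts, so no peak has a known depth and a gene that is not listed in a library is not shown to be unbound there. The deposited table holds fewer peaks for each library than the study's text describes, and how they were selected is not given in the sources used here, so a gene named in 1 library may stand on a longer list of another. The lists were of unequal length, with 1757 distinct peaks in CML-TKI against 715 in CML and 746 in WT. Some distinct peaks of a library overlap one another. Merging those with known ends left 1159 regions in CML-TKI against 699 in CML and 429 in WT. The shares of all peaks given here count overlapping peaks separately. Median widths of the distinct peaks were 217 bp in CML-TKI against 187 bp in CML and 348 bp in WT. Many peaks had exactly the same start and end in another library, namely 34.9% of CML-TKI, 55.3% of CML and 42.6% of WT peaks. How far identical ends come from the calling or merging of peaks was not tested. Counting any overlap, a peak of another library overlapped 61.9% of CML-TKI, 58.5% of CML and 98.6% of WT peaks. A CML-TKI or CML peak without such an overlap is therefore common among all peaks. A peak list measures no RNA, so the sorted cell type could not be checked by expression. Of 5 stem and LSK cell markers, CML-TKI named 2, CML 1 and WT 2. They were Kit, whose intergenic peak in each library lay 155735 bp past the TSS, and Slamf1 in CML-TKI and WT. Of 7 markers of lineage cells, 1 was named, Klrb1c in CML, and all of these marker peaks were over 5 kb away from the TSS.

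Of the 8 genes, CML-TKI named 5 (Jak3, Stat3, Ccnd3, Mcl1 and Junb), CML 6 (Jak3, Stat3, Stat5b, Il10rb, Ccnd3 and Myc) and WT 2 (Jak3 and Ccnd3). Among all 958 genes, CML-TKI named 71.1%, CML 51.5% and WT 27.3%. By pattern, 2 of the 8 were named in all 3 libraries (14.0% of all genes), and 1, Stat3, in CML-TKI and CML but not WT (8.66% of all genes). Of the 958 genes, 1 was named in WT only and 0 in CML and WT without CML-TKI. Nearly every gene named in WT was thus also named in CML-TKI, so that Jak3 and Ccnd3 were in both is no trait of theirs. CML-TKI and WT without CML named 127 genes and 0 of the 8. Mcl1 and Junb were named in CML-TKI only, a pattern of 35.2% of all genes. Stat5b, Il10rb and Myc were named in CML only, a pattern of 28.8% of all genes. With 8 genes, these counts single out no library.

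**Figure D1:**
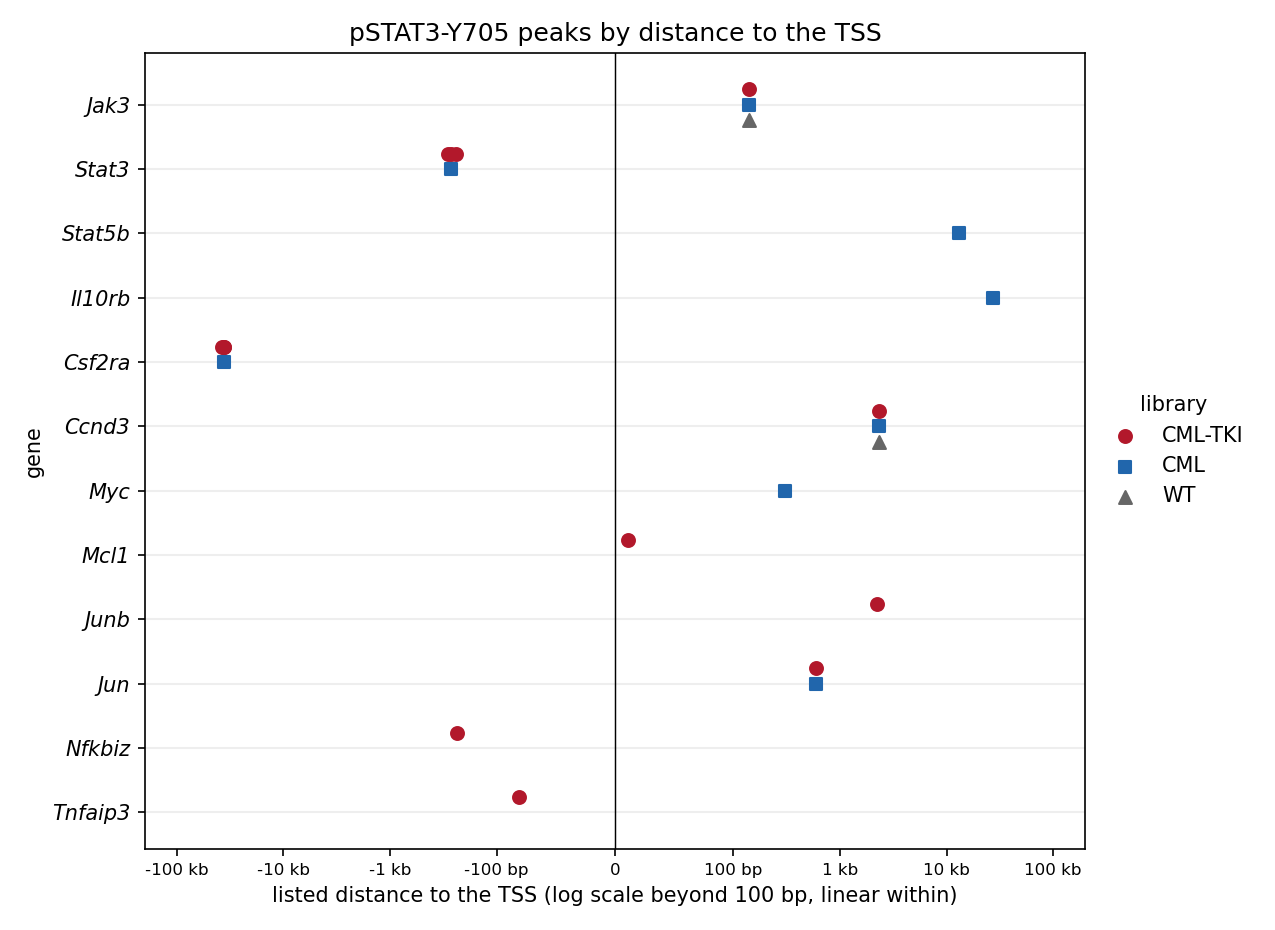
Listed distance from the centre of each pSTAT3-Y705 peak to the nearest transcription start site (TSS), in bp or kb, for the 8 genes and 4 further genes of the pathway and target lists; each point is 1 peak and its colour and shape give the library. Jak3 and Ccnd3 have points in all 3 libraries at 141 and 2321 bp, whereas Il10rb and Csf2ra have points beyond 27 kb.

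The Stat3 promoter held the most entries among the 8 genes, 6 in CML-TKI against 1 in CML and 0 in WT. The 327 bp peak at chr11:100800929-100801256 (mm9), 267 bp upstream of the TSS, had identical ends in CML-TKI and CML. CML-TKI also listed a 218 bp peak at chr11:100800955-100801173 and a 262 bp peak at chr11:100800955-100801217, both lying within it, so the entries describe 1 site. Overlapping peaks were common in CML-TKI as a whole, where 1727 peaks with ends merged to 1159 regions, against 711 to 699 in CML. The larger number of Stat3 entries in CML-TKI is thus no trait of Stat3. By width, the 327 bp peak was wider than 74.5% of CML-TKI peaks and 84.0% of CML peaks. The listed distance of the 262 bp peak, -284 bp, differs by -24 bp from that of its centre, while the other Stat3 peaks differ by 1 bp or less.

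The sequence before the Stat3 start is shown because it is the STAT3 promoter at which phosphorylated STAT3 itself was listed. It is the 250 bases upstream of the start, 5′ to 3′ on the gene's strand, from RefSeq on GRCm38.p6 (chr11:100939541-100939790), with capitals over the 147 bases that the 327 bp peak reaches by its distance to the TSS. The start sites of the peak table and of the sequence table can differ, and the spacing of the Stat3 and Stat5b starts differs by 33 bp between them, so the edge of the capitals is known no better than that.
Stat3: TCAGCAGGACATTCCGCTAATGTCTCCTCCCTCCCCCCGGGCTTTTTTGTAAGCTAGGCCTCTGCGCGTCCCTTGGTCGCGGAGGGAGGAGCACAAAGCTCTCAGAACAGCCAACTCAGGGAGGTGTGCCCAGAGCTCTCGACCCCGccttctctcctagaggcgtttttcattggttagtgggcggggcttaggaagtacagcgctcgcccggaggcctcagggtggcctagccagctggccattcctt
Of the capitals, 61.2% were G or C. The paired STAT motif TTCNNNGAA, which reads the same on both strands, is in 8.30% of 32851 promoter windows of 300 bases in this table and in no window of the 6 of the 8 genes that the table holds. The looser form TTNNNNNAA, of which TTCNNNGAA is one case, is in 59.0% of windows and occurs 2 times in the Stat3 window, both within the capitals. A match in these letters is a description and not a binding site. Each window holds 250 bases before and 50 bases after a start. By their distances to the TSS, the peaks of Stat5b, Jak3, Ccnd3 and Junb lie outside these windows. Those of Stat3 and Mcl1 lie only partly within them. The lack of TTCNNNGAA in a window is thus no reading of the peak sites, which were not searched.

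Stat5b, the other STAT gene of the 8, lies next to Stat5a and Stat3 in the gene order. It was named in CML only, at chr11:100698846-100699004 (158 bp, wider than 25.7% of CML peaks). The site lies in intron 1 of 18, 12974 bp past the TSS, and is annotated as a B3 short interspersed repeat. It had 2 entries, of which 1 carried rounded ends, and no peak of CML-TKI or WT overlapped it. The Stat5b and Stat3 peaks of CML were 101925 bp apart, just outside the 100 kb used for neighbours.

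Jak3 encodes the kinase that binds the common gamma chain of the interleukin-2 receptor family. Its peak at chr8:74200350-74200496 (146 bp) had identical ends in CML-TKI, CML and WT and lay in the 5′ untranslated part of exon 1 of 25, 141 bp past the TSS. The entries numbered 1 in CML-TKI against 2 in CML and 2 in WT. It was a narrow peak in each library, wider than 5.50% of CML-TKI, 16.3% of CML and 2.0% of WT peaks.

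Il10rb encodes the receptor chain shared by interleukin-10, interleukin-22 and the lambda interferons. It had 1 peak, in CML, at chr16:91433824-91433967 (143 bp, wider than 13.1% of CML peaks). The site is intergenic and 27415 bp past the TSS, the farthest of the 8 genes, and no peak of CML-TKI or WT overlapped it. In the gene order Il10rb stands between the interferon receptor genes Ifnar2 and Ifnar1, and Ifngr2 follows, none of which a peak named.

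Ccnd3, which encodes the G1 cyclin D3, was the target gene named in all 3 libraries. Its peak at chr17:47732656-47732818 (162 bp) had identical ends and 1 entry in CML-TKI, CML and WT. It lay in intron 4 of 6 of a Ccnd3 transcript, on a simple repeat of A, whose part in the listing was not tested. The listed distance, 2321 bp past the TSS, is given for a different Ccnd3 transcript, the one listed as nearest. The peak was wider than 18.4% of CML-TKI, 29.4% of CML and 8.44% of WT peaks.

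Myc encodes a transcription factor that drives growth and division. Its 2 entries gave 1 peak, in CML, at chr15:61817061-61817348 (287 bp), in the 5′ untranslated part of exon 1 of 3 and 308 bp past the TSS. It was wider than 79.2% of CML peaks, and no peak of CML-TKI or WT overlapped it.

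Mcl1 encodes a BCL2-related protein that blocks apoptosis. It had 3 entries of 1 peak, in CML-TKI, at chr3:95462507-95462801 (294 bp), centred 11 bp past the TSS, the closest of the 8 genes. It was wider than 69.4% of CML-TKI peaks, and no peak of CML or WT overlapped it. The 250 bases before the Mcl1 start are shown because this was the peak that covered a start itself, with the same source, strand rule and capitals (136 bases) as for Stat3 (GRCm38.p6, chr3:95658471-95658720).
Mcl1: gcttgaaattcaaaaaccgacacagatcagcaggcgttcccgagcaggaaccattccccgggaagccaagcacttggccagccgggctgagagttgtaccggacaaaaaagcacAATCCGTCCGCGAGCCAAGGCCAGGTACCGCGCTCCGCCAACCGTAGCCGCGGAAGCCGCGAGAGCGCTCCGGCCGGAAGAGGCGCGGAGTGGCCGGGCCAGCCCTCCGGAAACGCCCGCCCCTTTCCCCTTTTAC
Of these capitals 72.1% were G or C, and TTCNNNGAA does not occur in the window while TTNNNNNAA occurs 1 time. That match begins at -4 from the start and runs on past the printed bases.

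Junb encodes a member of the AP-1 family of transcription factors. It had 3 entries of 1 peak, in CML-TKI, at chr8:87500356-87500510 (154 bp, wider than 11.8% of CML-TKI peaks). The site is at the end of the transcript, 2214 bp past the TSS, and no peak of CML or WT overlapped it.

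Seen together, the peaks of the 8 genes lay near starts for some genes and far from them for others. Within 1 kb of a TSS lay 5 of 7 in CML-TKI against 3 of 6 in CML and 1 of 2 in WT. The shares of all peaks were 14.7% for CML-TKI, 17.1% for CML and 9.25% for WT. The 5 in CML-TKI count the Stat3 site 3 times. The Jak3 site is counted again in each library and the Stat3 site again in CML. Counted by gene, 3 of 5 named genes in CML-TKI, 3 of 6 in CML and 1 of 2 in WT had such a peak. The median width of the 8 genes' peaks was 218 bp in CML-TKI against 160 bp in CML and 154 bp in WT, below the median of all peaks in CML and WT and 1 bp above it in CML-TKI. The 8 sites fell in 2 promoters, 2 first-exon 5′ untranslated parts, 2 introns, 1 transcript end and 1 intergenic place. Repeats were annotated at 1 of 7 peaks in CML-TKI against 2 of 6 in CML and 1 of 2 in WT. Of all peaks, CML-TKI had 48.5% in repeats, CML 43.4% and WT 52.5%.

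**Figure D2:**
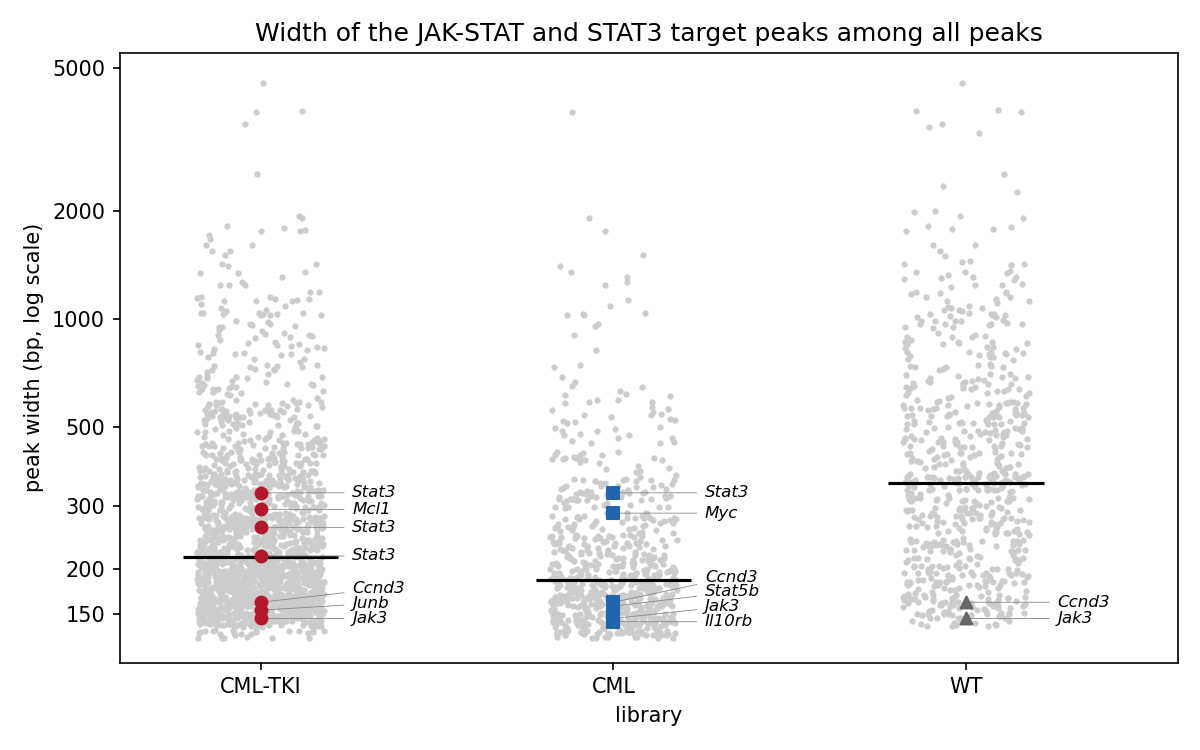
Width in bp (log scale) of the peaks of the 8 genes, as coloured and labelled points, over the widths of all peaks with ends in each library, as grey points; the black line is the median of all peaks. The widths of the 8 genes' peaks run between 143 and 327 bp, and both WT peaks, at 146 and 162 bp, lie under the WT median of 348 bp.

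Identical ends marked 3 of 7 peaks in CML-TKI against 3 of 6 in CML and 2 of 2 in WT, those of Jak3, Ccnd3 and, in CML-TKI and CML, Stat3. Counting any overlap, a peak of another library overlapped 5 of 7 in CML-TKI, 3 of 6 in CML and 2 of 2 in WT. The shares of all peaks were 61.9%, 58.5% and 98.6%. The average number of entries per peak was 2.0 in CML-TKI against 1.67 in CML and 1.5 in WT for the 8 genes. For all peaks it was 2.01 for CML-TKI, 2.05 for CML and 1.38 for WT. A repeated entry is a listing and not a read depth.

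Other listed peaks stood within 100 kb of 2 of the 8 genes. Around Jak3, both neighbours belonged to Fcho1, a gene for a protein that starts clathrin-coated pits. The peak at chr8:74271058-74271239, 70562 bp from Jak3 and on a CAGC simple repeat, was listed in CML-TKI and CML, and an overlapping one at chr8:74271071-74271233 in CML-TKI. No WT peak lay so near, and the nearest was 212915 bp from Jak3 at Zfp709. Around Stat3, the neighbour was 1 peak in CML at chr11:100869472-100869637, at -1212 bp from the TSS of Atp6v0a1, a subunit gene of the vacuolar proton pump, and 68216 bp from the Stat3 peak. The other 6 genes had no neighbour in any library.

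Just beyond 100 kb, CML-TKI held a further Fcho1 peak 126993 bp from Jak3 and a Calr promoter peak 128539 bp from Junb. Counting peaks with another of their library within 100 kb gave 1 of 7 in CML-TKI against 2 of 6 in CML and 0 of 2 in WT for the 8 genes. Of all peaks it gave 59.3% for CML-TKI, 39.1% for CML and 64.1% for WT. Peaks of a site that overlap one another did not count as neighbours but were each counted as a peak.

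**Figure D3:**
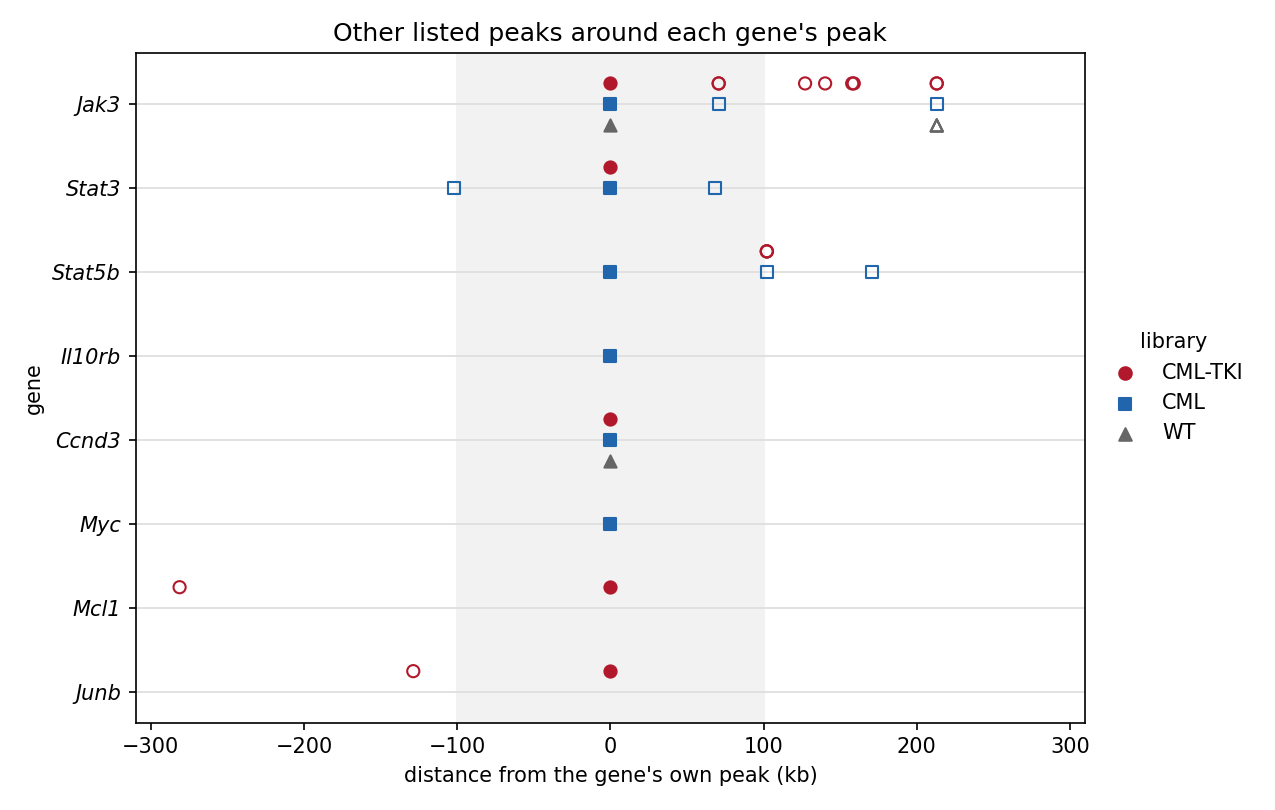
Other listed peaks around the peaks of the 8 genes, by distance in kb from the centre of the gene's own site; filled points are the gene's own peak in a library, open points other peaks, and the grey band is within 100 kb. Only Jak3 and Stat3 have open points within the band.

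The wider pathway was counted over 105 genes. Of these (JAK kinases, STATs, negative regulators, receptor chains and cytokines) CML-TKI named 4, CML 5 and WT 1. Of all protein-coding reference genes, the libraries named 2.68% (CML-TKI), 1.93% (CML) and 1.03% (WT). The kinases gave 1 of 4 in each library, Jak3. Of the 6 pathway genes named in any library, 4 (Jak3, Stat3, Stat5b and Il10rb) were themselves picked for having a peak. The pathway and kinase counts are therefore not independent of that choice, and setting them beside the shares of all genes tests nothing. None of 19 negative regulators, such as the SOCS genes, and none of 33 cytokine genes was named in any library. At shares of all genes this low, lists this short may hold no named gene, so no conclusion is drawn.

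The receptor chains gave 1 of 42 in CML-TKI against 2 of 42 in CML and 0 of 42 in WT. The shares of all protein-coding reference genes were 2.68% for CML-TKI, 1.93% for CML and 1.03% for WT. Il10rb, 1 of the 2 in CML, was itself picked for having a peak, and such small counts single out no library. Csf2ra, the alpha chain of the receptor for granulocyte-macrophage colony-stimulating factor, was listed in CML-TKI and CML at chr19:61339985-61340263, at -35803 bp from the TSS and on an LTR repeat.

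Of 48 classical STAT3 targets, CML-TKI named 8, CML 5 and WT 2, all within 5 kb of a TSS, beside the 2.68% (CML-TKI), 1.93% (CML) and 1.03% (WT) of all protein-coding reference genes. Because targets among the 8 genes were picked for having a peak, that list is not independent of the choice. The AP-1 gene Jun was listed in CML-TKI and CML at chr4:94718189-94718451, in its 5′ untranslated part and 593 bp past the TSS. Nfkbiz, an atypical inhibitor of nuclear factor kappa B, had a promoter peak in CML-TKI with 3 entries at chr16:55822359-55822614, at -235 bp from the TSS. Tnfaip3, which encodes the ubiquitin-editing enzyme A20, likewise had a promoter peak in CML-TKI with 3 entries at chr10:18735165-18735429, at -81 bp. Neither Nfkbiz nor Tnfaip3 was listed in CML or WT, a pattern of 35.2% of the 958 named genes.

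By likeness over 3 libraries, that is the same libraries and region class with the nearest distance, Stat3 stood with Cmtm6, at -302 bp from its TSS, and Cenpu, at -175 bp, out of 11 such genes. Jak3 had 1 such gene, Atf4, whose 5′ untranslated peak lay 436 bp past its TSS in all 3 libraries. Myc stood with Treml2 (320 bp) and Aurkaip1 (216 bp), out of 7, and Mcl1 with Nlrp3 (12 bp) and Plek (16 bp), out of 98. Stat5b stood with Osbpl8 and Lipa, out of 65, and Il10rb with Vmn2r74 and Mir3473f, out of 121. For Ccnd3 the genes were Gm13247 and Pisd-ps3, out of 25, and for Junb Olfr1509 and Mir7023, out of 2. The likeness says nothing of shared function or control.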

How the data were processed

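The pSTAT3-Y705 immunoprecipitates of LSK cells gave 1 library each of CML-TKI, CML and WT; an IgG input sample was not analysed here. By the study's methods, the authors aligned reads with bwa mem, called peaks with MACS2, HOMER, Genrich and SICER2, merged peaks and annotated them with HOMER; Partek 8.0 is also named in the submitters' processing notes. Per the file headers, the deposited table holds position, region class, distance to the TSS and gene of each peak, with no count or score. The build is mm10 in the methods, and both mm9 and mm10 are in the notes. On 6 chromosomes, peak ends pass the GRCm38 lengths, so positions are given as mm9, and sequences came from GRCm38.p6 RefSeq tables by gene name and distance only.

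Entries were reduced to distinct peaks per library. Of 6024 entries, 10.8% had ends rounded to 1 Mb, all at 100 Mb or beyond, and took the ends of a full entry of the same RefSeq accession and distance where there was one. Peaks overlapped where they shared 1 bp or more, and widths are ends minus starts. Genes were matched by symbol, and the percent called counts 21900 protein-coding reference genes or the 958 named genes. Like genes share libraries and region class with a member and were ranked by difference in distance. With 1 library a group, no test was made and replicate spread is unknown. The 8 genes and all lists were chosen with earlier results of these data known. The 3 further genes with a peak that the lists or the likeness rule select are not reported here, and the likeness rule was applied without them. Alternatives were distance, width, overlap and neighbour limits, rounded entries left out and matching by identifier; the closing section gives their effect. Steps were tested on simulated peaks. Python 3.11.15, numpy 2.4.6, pandas 2.3.3 and matplotlib 3.10.9 were used.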

Additional observations from a re-analysis of the deposited data

How the results depend on the processing

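No paired analysis was possible because there was 1 library a group. Counts of the 8 genes named (5 in CML-TKI, 6 in CML, 2 in WT) became 5, 4 and 2 for peaks within 5 kb of a TSS. At that limit CML no longer named the most, since its Stat5b and Il10rb peaks lie farther away. The counts became 3, 3 and 1 for peaks within 1 kb of a TSS and 2, 2 and 0 for peaks of at least 200 bp. With peaks whose ends are in 1 library only, a setting chosen after seeing the data, they became 3, 3 and 0. Pathway genes (4 in CML-TKI, 5 in CML, 1 in WT) fell to 2 in CML-TKI and 2 in CML within 5 kb, and to 2, 2 and 0 for peaks of at least 200 bp. STAT3 targets in WT fell to 1 of 2 at 200 bp. Other peaks near the 8 genes (2 in CML-TKI, 2 in CML) became 0 and 0 within 50 kb and 7 and 5 within 200 kb, and 1 in CML-TKI when overlapping peaks were merged; limits of distance and width decide these counts by construction. Leaving out rounded entries, matching genes by identifier and the overlap rules left the counts they were run on within 1.5 times. Peaks are presence calls from lists of unequal length, with 1 library a group, so a difference in listing cannot be told apart from a difference in depth or calling.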

Other observations

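Families of the 8 genes, chosen after their values were seen, were counted in the same lists. Each family includes at least 1 of the 8 genes, which were picked for having a peak. The family counts are therefore not independent of that choice. Of 12 JUN, FOS and ATF genes, CML-TKI named 5, CML 3 and WT 3. Of all protein-coding reference genes, CML-TKI named 2.68%, CML 1.93% and WT 1.03%, which are the shares to set beside each family's counts. All of Jun, Junb and Jund, the JUN genes of AP-1, were named in CML-TKI. Jund had a 442 bp exon peak in CML-TKI and WT, 1382 bp past its TSS. Fosb had a 240 bp peak in its 3′ untranslated part in all 3 libraries, 7143 bp past its TSS, and CML-TKI added a 502 bp peak at its transcript end. Of 9 cyclin genes of the D, E, A and B types, 1 was named in each library, Ccnd3, and of 10 genes of the MYC network, Myc was the 1 named, in CML. Of 19 BCL2 family genes, CML-TKI named 3 (Mcl1, Bcl2l10 and Pmaip1), CML 0 and WT 1, Pmaip1. The Bcl2l10 peaks of CML-TKI lay at -5105 and 14630 bp from its TSS, and the Pmaip1 peak of CML-TKI and WT was intergenic, 19739 bp from its TSS.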
